A study of Mus musculus with 12 samples.

Results

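The nuclear receptor superfamily genes described here were 45 of the 21883 coding genes of the mouse RefSeq table, namely the whole family without Esr1 and Pgr, which encode the immunoprecipitated receptors. A ChIP-seq peak was counted for a member when its summit, the position of highest signal, lay within 50 kb of the gene's span in mm10. Chromatin came from whole mammary glands of mice kept to 8 weeks of age, all given implants of estradiol (E2) and progesterone (P4) and sampled 4 days later. The 8 libraries were 2 each of PR in Y541S glands, PR in WT glands, ERα in Y541S glands and ERα in WT glands, where Y541S is a tyrosine-to-serine change in ERα, the product of Esr1, and WT has Esr1 unchanged. The sources used here give neither the copies of the Y541S allele, nor the promoter that drives it, nor the number of animals per library. The 4 D542G samples were not analysed here. The title of the series names luminal cells, whereas the sample labels give whole glands, which also hold basal, fat, vessel and immune cells, so that a peak does not tell in which cell type the receptor was bound.

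Nuclear receptors are transcription factors, most of which bind DNA through zinc fingers and many of which are switched by a small fat-soluble ligand such as a steroid, thyroid hormone, vitamin D, retinoic acid or a fatty acid. Retinoid X receptors are the shared dimer partner of the thyroid hormone, retinoic acid, vitamin D, PPAR and sterol receptors, whereas steroid receptors bind as homodimers. ERα and PR mark the hormone-sensing luminal cells of the mammary gland, and several other members, among them the glucocorticoid, vitamin D and retinoic acid receptors, are known to act in mammary epithelium.

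The deposited PR lists held 113695 and 101382 peaks in Y541S against 82982 and 93491 in WT (replicates 1 and 2 of each). The ERα lists held 106926 and 105612 peaks in Y541S against 72566 and 64488 in WT. Lists of Y541S libraries were thus longer than those of WT libraries for both receptors, and summit numbers are given as counted and per 100000 peaks of the list. Peak heights were not normalised between libraries. The read depth behind the lists was not used here, and a peak missing from a list can hold signal under the authors' threshold.

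Promoters that carried a receptor peak are shown first, because they are the places where peaks and member genes can be joined with least ambiguity. RefSeq promoter windows, from 250 bases before to 50 after a listed start (GRCm38.p6, the assembly equivalent to mm10), existed for 41 of the 45 members, 61 windows in all. PR summits lay in the window of 3 promoters in all 4 PR libraries, against a background of 8.52% of all 21262 coding promoters, and ERα summits lay in none of the 61 in all 4 ERα libraries, against 6.6%. The PR-bound promoters belonged to Nr6a1, the germ cell nuclear factor, Nr2c2, the testicular receptor TR4, and Nr3c2, the mineralocorticoid receptor. The listed start of Rarb, retinoic acid receptor beta, and the second listed start of Rxrg, retinoid X receptor gamma, are added as examples. Each lay inside an ERα region found in all 4 ERα libraries. Of the 136 such regions near members, 19 had their mean summit within 1 kb of a listed start. The 250 bases before each start are printed on the strand of the gene. They lie at chr2:38926462-38926711 (minus strand) for Nr6a1, chr6:92092183-92092432 (plus strand) for Nr2c2, chr8:76902080-76902329 (plus strand) for Nr3c2, chr14:16575477-16575726 (minus strand) for Rarb and chr1:167618015-167618264 (plus strand) for Rxrg. Capitals mark GGTCA or its complement TGACC, which is the arm of an estrogen response element, and in Rarb also the GTTCA repeats. The arm AGAACA (complement TGTTCT) of a progesterone response element was searched too and is in none of these 5. The 250 bases of Nr6a1 and Nr2c2 hold none of these letters.
Nr6a1: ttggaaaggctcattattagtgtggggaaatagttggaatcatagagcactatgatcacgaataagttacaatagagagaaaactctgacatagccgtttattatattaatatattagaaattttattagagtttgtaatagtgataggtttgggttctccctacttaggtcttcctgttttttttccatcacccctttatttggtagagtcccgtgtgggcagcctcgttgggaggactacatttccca
Nr2c2: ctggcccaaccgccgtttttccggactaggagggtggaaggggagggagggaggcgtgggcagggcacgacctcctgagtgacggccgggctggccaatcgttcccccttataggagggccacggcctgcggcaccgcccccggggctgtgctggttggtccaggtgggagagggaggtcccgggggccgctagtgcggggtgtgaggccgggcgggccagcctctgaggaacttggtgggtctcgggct
Nr3c2: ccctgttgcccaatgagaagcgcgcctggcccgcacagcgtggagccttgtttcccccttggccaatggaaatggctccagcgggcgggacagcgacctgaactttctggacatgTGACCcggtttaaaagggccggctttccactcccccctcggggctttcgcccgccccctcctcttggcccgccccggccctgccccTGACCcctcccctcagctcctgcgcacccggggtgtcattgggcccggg
Rarb: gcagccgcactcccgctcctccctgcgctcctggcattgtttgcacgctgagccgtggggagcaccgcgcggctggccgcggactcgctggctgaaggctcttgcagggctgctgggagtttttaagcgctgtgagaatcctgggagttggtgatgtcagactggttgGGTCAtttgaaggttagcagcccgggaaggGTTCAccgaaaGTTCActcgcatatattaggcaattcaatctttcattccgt
Rxrg: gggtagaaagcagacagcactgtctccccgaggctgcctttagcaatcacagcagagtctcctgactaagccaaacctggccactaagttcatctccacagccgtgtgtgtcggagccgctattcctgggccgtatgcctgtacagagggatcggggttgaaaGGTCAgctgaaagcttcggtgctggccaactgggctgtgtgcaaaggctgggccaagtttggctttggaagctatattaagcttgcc

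Over all windows and both strands, GGTCA was found in 26 of the 61 member promoters (42.6%) and in 39.4% of coding promoters. AGAACA was found in 5 (8.2%) and in 16.2% of coding promoters. The full palindromes GGTCANNNTGACC and GNACANNNTGTNC, which contain these arms or close forms of them, were in 0 of the 61, against 0.0517% and 0.442% of coding promoters. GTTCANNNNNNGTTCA, the direct repeat through which retinoic acid receptors are known to act on Rarb, was in the Rarb promoter and no other member's window, against 0.0658% of coding promoters. In Rarb it began 52 bases before the start, and a GGTCA began 82 bases before it. These are matches of letters and were not tested as binding sites.

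The summit of PR lay at -83 and -86 bases from the Nr6a1 start in Y541S and at 44 and -111 in WT, and 1 of the 4 ERα libraries had a summit in the window. Nr2c2 had PR summits at -249 and -228 bases in Y541S and at -165 and -240 in WT, and a summit in 3 of 4 ERα libraries. Nr3c2 had PR summits at -227 and -248 bases in Y541S and at -237 and -229 in WT, so that the 4 libraries placed the peak at nearly the same position. An ERα region found in all 4 ERα libraries, chr8:76901915-76902537, covered the same Nr3c2 start. An ERα region covered the Nr2c2 start as well, chr6:92092048-92092790. At Rarb, ERα had a region in all 4 libraries over the start, chr14:16575079-16575844, with deposited fold enrichments of 3.65 and 5.84 in Y541S and 3.81 and 5.55 in WT. PR had a peak over the same start, chr14:16575002-16575962, in both Y541S libraries, with fold enrichments of 4.64 and 6.82, and in neither WT library. At the second start of Rxrg the ERα region chr1:167617959-167618759 had fold enrichments of 5.48 and 4.42 in Y541S and 3.93 and 4.34 in WT, and no PR library had a peak there. For PR, 27.9% and 32.8% of member windows held a summit in Y541S and 13.1% and 24.6% in WT, where coding promoters had 30.0% and 30.4% in Y541S and 17.8% and 26.1% in WT. For ERα, 19.7% and 11.5% of member windows held one in Y541S and 14.8% and 16.4% in WT, where coding promoters had 26.8% and 27.5% in Y541S and 22.6% and 20.5% in WT. Member promoters were below coding promoters in 7 of the 8 libraries, the exception being PR in Y541S replicate 2.

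Within 50 kb of the members lay 650 and 572 summits of PR in Y541S, 484 and 556 of PR in WT, 623 and 637 of ERα in Y541S and 497 and 430 of ERα in WT. In numbers of summits the Y541S libraries were above the WT libraries for both receptors, with no overlap. As a share of the list the order turned. For ERα the family held 0.593% ± 0.0145 of all peaks in Y541S and 0.676% ± 0.0128 in WT (SD, n = 2 each), a log2 ratio of -0.19, and both Y541S values were below both WT values. For PR it held 0.568% ± 0.00530 in Y541S and 0.589% ± 0.00810 in WT (SD, n = 2 each), a log2 ratio of -0.05, again without overlap. The share of peaks near any coding gene was also lower in Y541S without overlap, 84.4% and 84.5% against 86.1% and 85.9% in WT for PR, and 84.1% and 82.8% against 87.2% and 87.0% in WT for ERα. Among peaks near coding genes, the family's share was 0.672% in Y541S and 0.685% in WT for PR, where the nearest Y541S and WT libraries were both at 0.677%, and 0.711% in Y541S and 0.776% in WT for ERα, where both Y541S libraries were below both WT libraries. PR against ERα gave log2 ratios of -0.06 in Y541S and -0.20 in WT. An exact permutation test of 2 against 2 libraries cannot give a p below 0.33. With the 20000 strongest peaks of each list the log2 ratio of Y541S to WT was -0.0094 for ERα and 0.019 for PR, so that the lower shares were not seen among the strongest peaks.

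**Figure D1:**
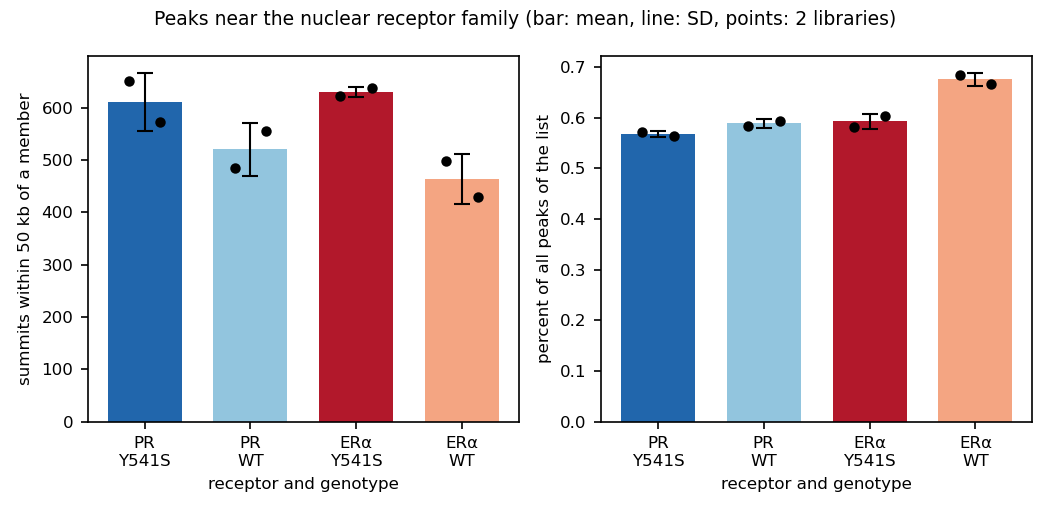
Summits within 50 kb of a nuclear receptor gene in each library, as a number (left) and as a percentage of all peaks of the list (right). Bars are means of 2 libraries, lines are SD and points are libraries. By number, the Y541S libraries lie above the WT libraries, and by share they lie below them, with means of 0.593% in Y541S and 0.676% in WT for ERα.

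Per 100 kb of window, averaged over the 8 libraries, the members had a median of 7.35 summits and ran from 0.0993 to 18.4, and the median of all coding genes was 6.13. The windows of members were longer, with a median of 147 kb against 117 kb. The 5 members with most summits per 100 kb were Thra (18.4), Nr1d1 (17.3), Nr4a1 (15.1), Vdr (13.2) and Rarg (13.0). Thra encodes thyroid hormone receptor alpha, and Nr1d1, on the opposite strand of the same locus, encodes the circadian repressor REV-ERBα. Their windows overlap, and 15 to 22 summits per library lay in both, while the windows of Nr5a1 and Nr6a1 shared 2 to 9 summits per library. Peaks near any member can belong to neighbouring genes. Thra had 26 and 26 summits of PR in Y541S, 23 and 24 of PR in WT, 23 and 22 of ERα in Y541S and 26 and 19 of ERα in WT. Nr1d1 had 19 and 21 of PR in Y541S, 16 and 19 of PR in WT, 18 and 18 of ERα in Y541S and 22 and 16 of ERα in WT. In both genes ERα numbers overlapped between Y541S and WT. Per 100000 peaks, ERα summits were lower in Y541S without overlap, 21.5 and 20.8 against 35.8 and 29.5 in WT for Thra, and 16.8 and 17.0 against 30.3 and 24.8 in WT for Nr1d1, and neither was called (limma adjusted p = 0.147 and 0.141).

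Nr4a1, an immediate-early orphan receptor, had 17 and 21 summits of PR in Y541S, 14 and 18 of PR in WT, 21 and 17 of ERα in Y541S and 20 and 18 of ERα in WT. Vdr, the vitamin D receptor, had 28 and 23 of PR in Y541S, 17 and 22 of PR in WT, 21 and 23 of ERα in Y541S and 14 and 14 of ERα in WT. Its numbers were higher in both Y541S libraries than in both WT libraries for each receptor, while its ERα numbers per 100000 peaks, 19.6 and 21.8 in Y541S and 19.3 and 21.7 in WT, were nearly equal. Rarg, retinoic acid receptor gamma, had 23 and 14 summits of PR in Y541S, 15 and 17 of PR in WT, 13 and 13 of ERα in Y541S and 20 and 12 of ERα in WT. At the other end, Hnf4g, a receptor of gut and liver, had 0 or 1 summit in each library. Nr0b1, the adrenal and gonadal repressor DAX1, had 3 summits in ERα Y541S replicate 2 and 0 in the other 7 libraries. Rorb, an orphan receptor of brain and retina, had 3 and 2 of PR in Y541S, 0 and 2 of PR in WT, 2 and 2 of ERα in Y541S and 1 and 1 of ERα in WT. Between 41 and 45 members had at least 1 summit in each library.

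**Figure D2:**
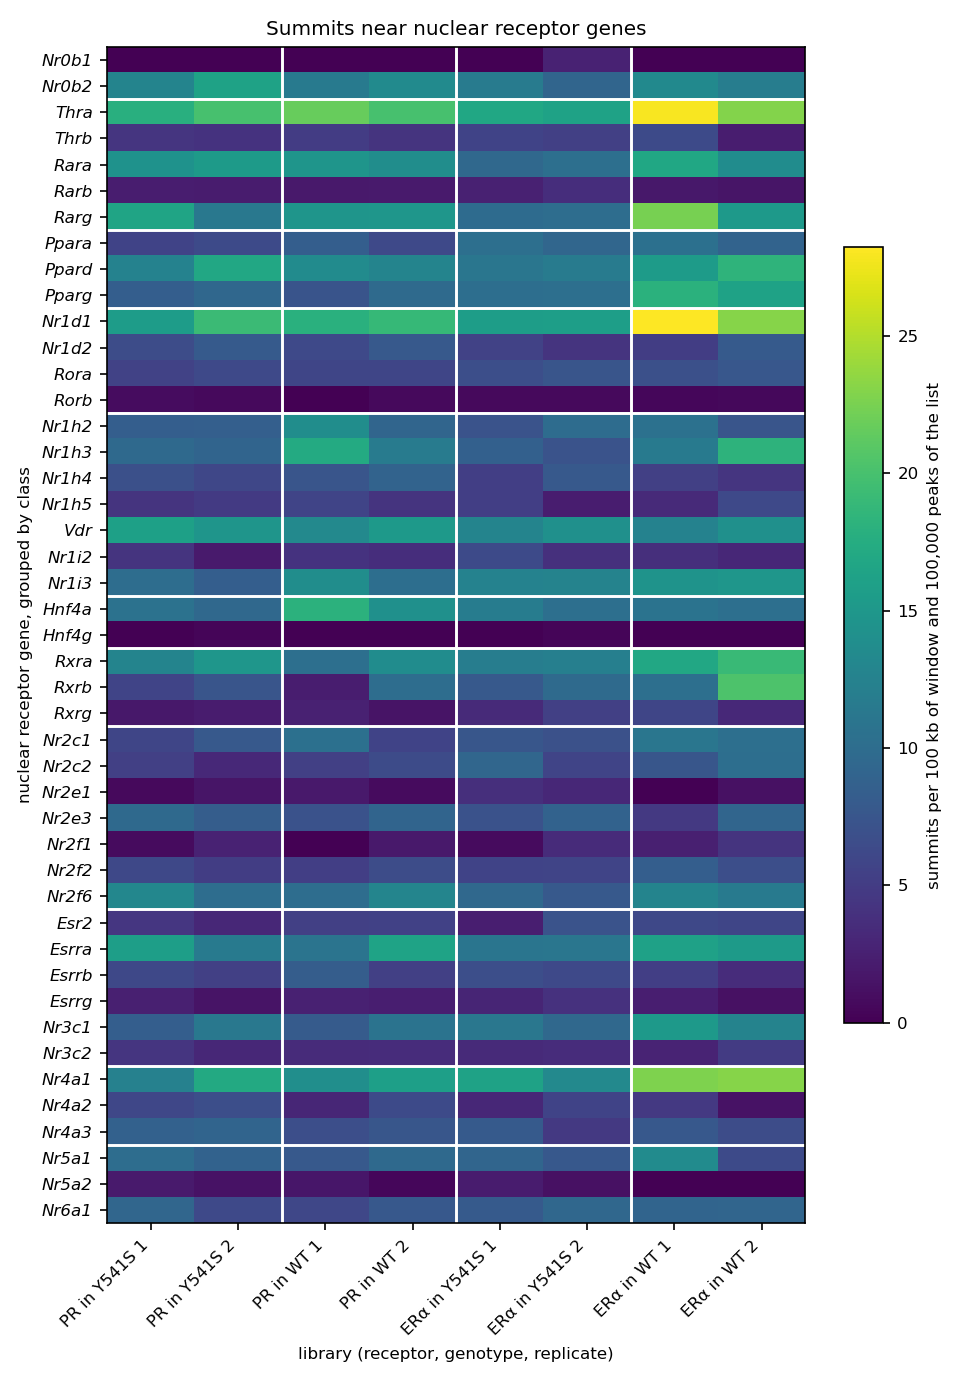
Summits per 100 kb of window and 100000 peaks of the list, for 45 nuclear receptor genes (rows, grouped by class) in 8 libraries (columns). Thra, Nr1d1 and Nr4a1 are the brightest rows, most of all for ERα in WT, and Hnf4g, Nr0b1 and Rorb stay near 0, Nr0b1 with 3 summits in 1 library.

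To ask whether the lists treat members differently, summits near each coding gene, with 0.5 added, were scaled to 100000 peaks and compared on the log2 scale with limma over 17673 coding genes with a mean of at least 2 summits. Of the members, 42 passed that filter, and Nr0b1, Rorb and Hnf4g did not. For ERα in Y541S against WT, 1 of the 17673 genes was called higher at a Benjamini-Hochberg adjusted p of 0.05 (0.00566%) and 0 lower, and 0 of the 42 members were called. At an unadjusted p under 0.05 there were 3020 genes (17.1%) and 13 of the 42 members (31.0%), 4 higher and 9 lower. The 9 include both Thra and Nr1d1, whose windows overlap. With peaks of −log10 p of at least 5, the shares were 7.85% of genes and 7.89% of members. With the 20000 strongest peaks they were 5.74% and 10%. For PR in Y541S against WT, limma called 0 genes (0%) and 0 members, with 815 genes (4.61%) and 2 members (4.76%) under an unadjusted p of 0.05. The median log2 difference was -0.02 for members and -0.06 for all genes for PR, and -0.27 for members and -0.19 for all genes for ERα. Without scaling to list length all 4 medians were positive, 0.26 for members and 0.22 for all genes for PR, and 0.36 for members and 0.45 for all genes for ERα. Scaling shifts all genes of a comparison alike, so the members' median for ERα lay 0.09 (log2) below that of all genes by either count, and 0.0068 below it among the 20000 strongest peaks.

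**Figure D3:**
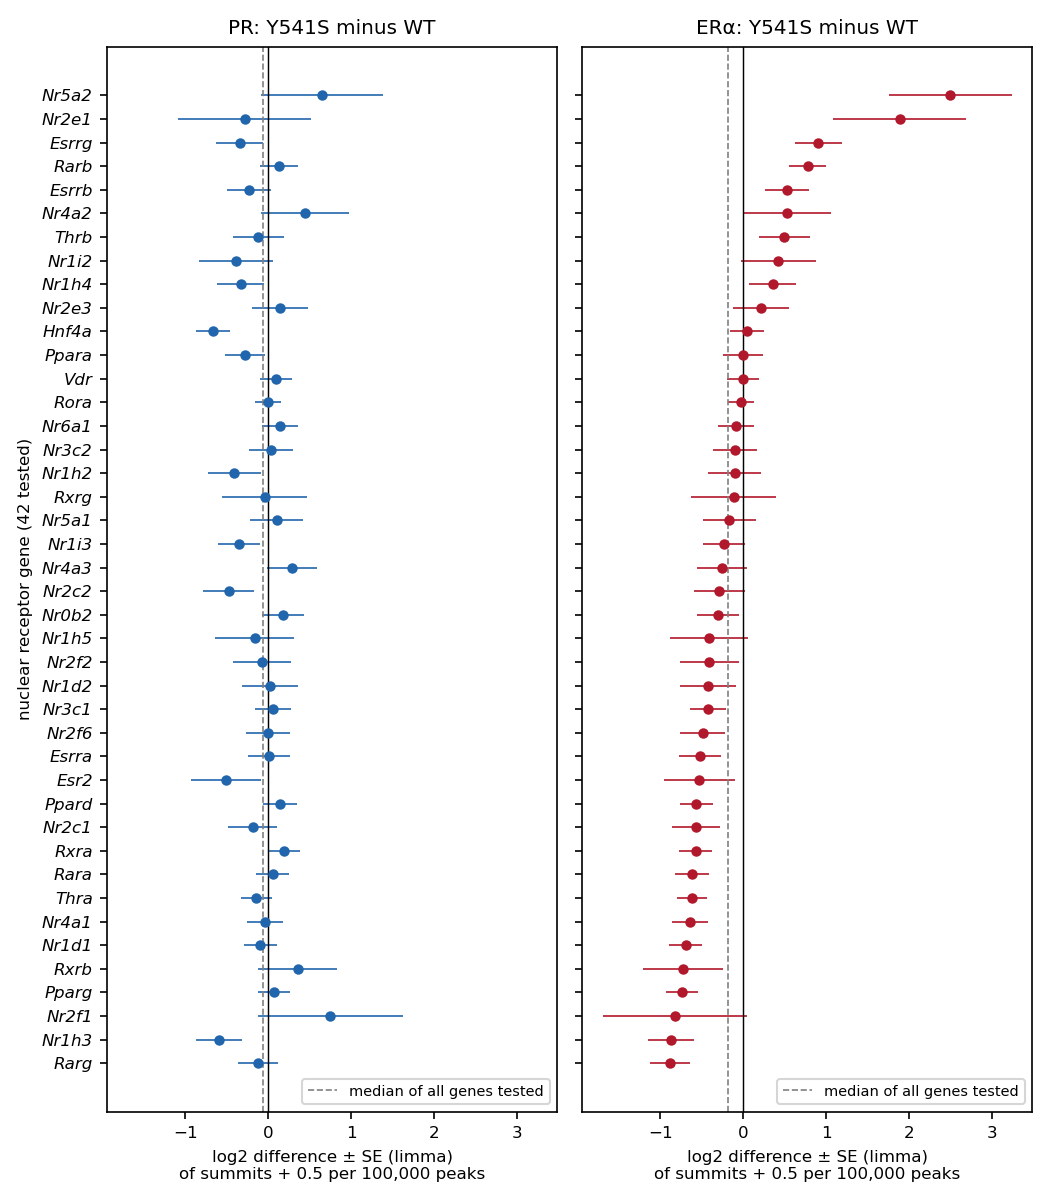
Log2 difference of Y541S minus WT in scaled summit number ± SE for the 42 members tested, for PR (left) and ERα (right), ordered by the ERα value, with the median of all 17673 genes dashed. No member reached the adjusted threshold for either receptor, and the ERα values run from -0.88 for Rarg to 2.50 for Nr5a2.

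The lowest differences in the ERα comparison were those of Rarg, Nr1h3 and Nr2f1. Per 100000 peaks, Rarg had 12.2 and 12.3 ERα summits in Y541S and 27.6 and 18.6 in WT, a log2 difference of -0.88 ± 0.24 (SE; limma adjusted p = 0.125). Nr1h3, the oxysterol receptor LXRα, had 11 and 9 ERα summits in Y541S and 10 and 14 in WT, which are 10.3 and 8.52 against 13.8 and 21.7 per 100000 peaks, a difference of -0.87 ± 0.28 (SE; limma adjusted p = 0.152). Nr2f1, the orphan receptor COUP-TFI, had 1 and 4 ERα summits in Y541S and 2 and 3 in WT, with a difference of -0.82 that was smaller than its SE of 0.87. The scaled values of Rarg and Nr1h3 did not overlap between genotypes, and those of Nr2f1 did. Among the 20000 strongest peaks of each list the differences of Rarg and Nr1h3 turned positive, 0.16 and 0.75, and leaving out 1 library gave -1.19 to -0.56 for Nr1h3 and -1.15 to -0.61 for Rarg.

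At the high end stood Nr5a2, the orphan receptor LRH-1, with 5 and 3 ERα summits in Y541S and 0 and 0 in WT (limma adjusted p = 0.145). Its fitted difference of 2.50 depends on the added 0.5, since WT was at 0. Of the region classes defined further below, Nr5a2 had 0 constant and 0 Y541S-only ERα regions. Its higher number in Y541S thus did not come with a gained site shared between replicates. Nr2e1, the neural stem cell receptor TLX, had 5 and 4 ERα summits in Y541S and 0 and 1 in WT (1.89 ± 0.80 SE, limma adjusted p = 0.248). Esrrg, estrogen-related receptor gamma, had 22 and 30 in Y541S and 12 and 6 in WT (0.90 ± 0.28 SE, limma adjusted p = 0.151), and Rarb had 21 and 29 in Y541S and 10 and 8 in WT (0.78 ± 0.22 SE, limma adjusted p = 0.139). In all 4 genes both Y541S libraries were above both WT libraries, and none was called. Leaving out 1 library moved the difference to between 1.01 and 2.76 for Nr2e1 and between 0.52 and 1.29 for Esrrg. Nr2e1 passed the filter in 6 of the 8 such fits. Without scaling, Nr5a2, Esrrg, Rarb and also Esrrb (estrogen-related receptor beta) passed the threshold, with limma adjusted p from 0.0203 to 0.0456. In that fit 544 of all genes (3.08%) were called higher and 88.4% were above 0. With peaks of −log10 p of at least 5 alone, the Rarb difference was -0.42. Thrb, thyroid hormone receptor beta, had 29 and 27 ERα summits in Y541S and 22 and 7 in WT. Its log2 difference of 0.50 was 1.20 when WT replicate 1, the library with 22, was left out. The second value sets the Y541S libraries against 1 WT library.

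For PR the largest differences were Nr2f1 at 0.75, Nr5a2 at 0.65 and Nr4a2 at 0.44 upward, and Hnf4a at -0.67, Nr1h3 at -0.59 and Esr2 at -0.51 downward, all with a limma adjusted p of 0.979 or more. Nr2f1 had 1 and 3 PR summits in Y541S and 0 and 2 in WT. Nr5a2 had 5 and 3 in Y541S and 3 and 1 in WT. Nr4a2, the orphan receptor NURR1, had 8 and 8 in Y541S and 3 and 7 in WT. Each of these upward values turned negative when 1 PR WT library was left out, -0.33 for Nr2f1 and -0.019 for Nr4a2 without replicate 1, and -0.046 for Nr5a2 without replicate 2. Hnf4a, a receptor of liver and gut, had 20 and 16 PR summits in Y541S and 25 and 22 in WT, so that it was lower in Y541S by number as well as by share. Nr1h3 had 13 and 11 in Y541S and 17 and 13 in WT. Esr2, which encodes ERβ, had 8 and 5 in Y541S and 7 and 8 in WT. Leaving out 1 library moved the PR difference to between -0.86 and -0.32 for Nr1h3 and between -0.74 and -0.28 for Esr2.

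Groups without overlap were counted as a description. For ERα, both Y541S libraries were above both WT libraries per 100000 peaks in 6 of 42 members (Rarb, Nr1i2, Nr2e1, Esrrb, Esrrg and Nr5a2), against 14.2% of all genes, and below both in 17 of 42, against 31.7%. For PR, they were above in 2 of 42 (Rarb and Nr4a3), against 14.2%, and below in 7 of 42 (Thra, Nr1h2, Nr1h3, Nr1h4, Nr1i3, Hnf4a and Esr2), against 23%. Rarb was the one member above in both receptors, and Thra, Nr1h3 and Nr1i3 (the xenobiotic receptor CAR) were below in both. The difference between the genotype effects on PR and on ERα was itself tested, and limma called 0 genes (0%) and 0 of the 42 members. There were 1199 genes and 7 members at an unadjusted p under 0.05.

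With the settings as designed, Pparg was the 1 member called in any comparison, with fewer PR than ERα summits in WT glands. It encodes PPARγ, the fatty acid receptor that directs fat cell formation. It had 14 and 21 PR summits and 30 and 24 ERα summits in WT, which are 16.9 and 22.5 against 41.3 and 37.2 per 100000 peaks, and the receptors did not overlap. The log2 difference was -1.0 ± 0.19 (SE; limma adjusted p = 0.0402). In the same comparison limma called 34 genes lower (0.192%), Pparg among them, and 69 higher (0.39%), with 0 members. Without scaling, the split was 4 lower and 301 higher. In Y541S, Pparg had 22 and 22 PR summits and 25 and 25 ERα summits, a difference of -0.20 (limma adjusted p = 0.753), and across the genome limma called 0 genes (0%) and 0 members for PR against ERα in Y541S, with 1939 genes and 5 members at an unadjusted p under 0.05. The change of the PR to ERα difference with genotype was 0.80 ± 0.27 (SE) for Pparg and was not called (limma adjusted p = 0.724). For ERα alone, Pparg had 23.4 and 23.7 summits per 100000 peaks in Y541S against 41.3 and 37.2 in WT, a difference of -0.74 that was not called (limma adjusted p = 0.118), and this comparison shares the ERα WT libraries with that of PR against ERα. PR and ERα were precipitated with different antibodies. The Pparg call was lost with stricter peak thresholds (limma adjusted p = 0.122 and 0.440), a 10 kb window (0.160), no scaling (0.162), no filter (0.0789), without PR WT replicate 1 (0.204, difference -0.80) and without any 1 of the 4 Y541S libraries (0.0671 to 0.0715), and the difference stayed negative in each.

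Fat cell markers had differences of the same sign. The 5 adipocyte markers Adipoq, Plin1, Fabp4, Cidec and Lipe together had 50.6 and 52.4 PR summits per 100000 peaks in WT against 82.7 and 76.0 ERα summits, and 50.1 and 48.3 against 63.6 and 65.3 in Y541S. Their median log2 difference of PR against ERα in WT was -0.74, with 3 of 5 lower at an unadjusted p under 0.05, 0 of 5 called by limma and a smallest adjusted p of 0.0760. None of the 5 was at 0, and all had regions found in all 4 libraries for each receptor. Of coding genes, 78.1% had such a region for PR and 72.4% for ERα. Their part in the Pparg result was not tested. Of 7 luminal markers, 1, the pioneer factor gene Foxa1, was called higher for PR against ERα in WT (limma adjusted p = 0.0498), with 11 and 16 PR summits and 2 and 3 ERα summits. With a 10 kb window limma called 0 genes higher in that comparison, so the Foxa1 call was lost. The median of the 7 luminal markers was 0.68, with 4 of 7 higher and 0 lower at an unadjusted p under 0.05, so that luminal and fat cell markers had medians of opposite sign. Of 5 basal, 4 endothelial and 4 immune markers, limma called 0 in each of the 5 comparisons. Immune markers also had a negative median for PR against ERα in WT, -0.54. The medians of basal and endothelial markers were 0.18 and 0.098, and that of all genes was -0.10.

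At an unadjusted p under 0.05, 10 of 42 members (23.8%) differed between PR and ERα in WT, Pparg included, 4 higher and 6 lower, against 3045 of all genes (17.2%). Rxrb, retinoid X receptor beta, had 2 and 10 PR summits and 8 and 14 ERα summits in WT. Its log2 difference of -1.48 was -2.43 without PR WT replicate 2, the library with 10. The second value rests on 1 remaining PR WT library. Nr4a1 was called lower among peaks with −log10 p of at least 5 (-1.08, limma adjusted p = 0.0346), as were 2.34% of the genes tested there. Rxra, retinoid X receptor alpha and the dimer partner of PPARγ, had 16 and 24 PR summits and 23 and 23 ERα summits in WT.

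**Figure D4:**
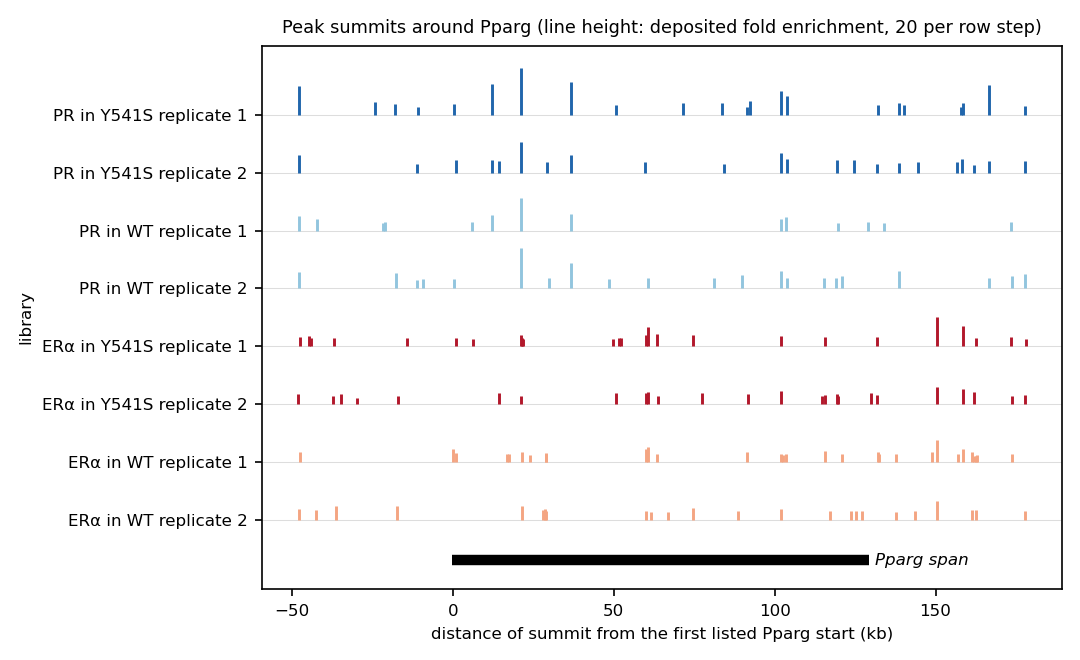
Summits around Pparg in 8 libraries, as distance in kb from the first listed start, with line height giving the deposited fold enrichment and the black bar the gene's span. PR in WT has 14 and 21 summits and ERα in WT 30 and 24. The tallest PR line sits inside the gene in all 4 PR libraries, and the tallest ERα line beyond its end in the 4 ERα libraries.

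At Pparg the receptors also differed in their strongest sites. The best PR region, chr6:115381971-115383196, was within the gene and had fold enrichments of 16.3 and 10.8 in Y541S and 11.3 and 14.0 in WT. ERα had a region in all 4 libraries at the same place, chr6:115382073-115383157, with values of 3.81 and 2.95 in Y541S and 3.33 and 4.59 in WT. The best ERα region, chr6:115511119-115511958, lay 21.2 kb outside the span, with 10.2 and 5.77 in Y541S and 7.53 and 6.34 in WT, and no PR library had a peak in it. A PR region inside the gene, chr6:115397298-115398019, had 11.2 and 6.11 in Y541S and 5.87 and 8.61 in WT and overlapped no ERα peak. Of the 9 ERα regions found in WT alone near any member, 4 were near Pparg, and no PR library had a peak in any of these 4. Some of the 4 lie close together. ERα in WT replicate 1 had summits 28.8 and 29.0 kb from the first listed start, and replicate 2 at 28.7 and 29.0 kb.

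For each receptor, peaks that overlapped between its 4 libraries were joined into 1 region. A region is called constant where all 4 libraries had a peak, Y541S-only where the 2 Y541S libraries did and neither WT library, and WT-only in the reverse case. Of 1080 PR regions near members, 218 were constant (20.2%, against 20.3% near all coding genes), 55 Y541S-only (5.09%, against 6.59%) and 6 WT-only (0.556%, against 0.594%). Of 1316 ERα regions, 136 were constant (10.3%, against 9.53%), 54 Y541S-only (4.10%, against 4.45%) and 9 WT-only (0.684%, against 0.661%). At least 1 constant PR region lay near 38 of 45 members (78.1% of coding genes), a Y541S-only PR region near 31 (55.2%) and a WT-only PR region near 6 (9.63%). For ERα the numbers were 36 of 45 (72.4%), 33 (49.4%) and 5 (11.5%). The member was the closest coding gene for 119 of the 218 constant PR regions and 70 of the 136 constant ERα regions. Of the constant ERα regions, 81 overlapped a constant PR region, which is 59.6% of the ERα regions and 37.2% of the PR regions, against 61.4% and 32.6% near all coding genes. No PR peak of any library touched 15 of the constant ERα regions, and no ERα peak touched 32 of the constant PR regions. The Y541S-only shares of members with a region, 68.9% for PR and 73.3% for ERα, were above those of coding genes, whereas the Y541S-only shares of regions were not. The members have longer windows than coding genes, and the part of window length was not tested. The members without a constant region of either receptor were Nr0b1, Rorb, Nr1i2, Hnf4g, Nr2e1 and Nr2f1.

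The best-ranked constant PR region lay inside Nr1d2, which encodes REV-ERBβ, the paralog of REV-ERBα in the circadian clock. It spans chr14:18221774-18222417, with deposited fold enrichments of 20.2 and 17.2 in Y541S and 17.5 and 16.5 in WT, and ranked 86 and 282 in the Y541S lists and 50 and 360 in the WT lists. Of the ERα libraries, 2 had a peak there. Next came regions 35.9 kb from Rarg (chr15:102198782-102199365, closest gene Csad), 5.28 kb from Nr2c2 (chr6:92085828-92086509), 16.0 kb from Hnf4a (chr2:163490580-163491035, closest gene R3hdml) and 20.7 kb from Ppara, the fatty acid receptor of liver and muscle (chr15:85827120-85828032, closest gene Ttc38). The Nr2c2 region had fold enrichments of 20.4 and 21.5 in Y541S and 10.99 and 16.4 in WT, with a peak in 1 of 4 ERα libraries. With the promoter region shown above, Nr2c2 had constant PR sites at and upstream of its start.

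The best-ranked constant ERα region lay 19.7 kb from Nr3c1, the glucocorticoid receptor gene, and closest to Arhgap26, with fold enrichments of 17.7 and 16.9 in Y541S and 16.1 and 17.1 in WT. The next lay 43.7 kb from Thra (chr11:98696654-98697272, closest gene Psmd3) and 32.2 kb from Nr1d2 (chr14:18270566-18271746, closest gene Nkiras1). The fourth, chr1:188117798-188118603, lay inside Esrrg, 120 kb from the nearest listed start, with fold enrichments of 19.1 and 17.0 in Y541S and 19.1 and 8.43 in WT. No PR library had a peak in it, which made it the best-ranked constant ERα region near a member without PR. The fifth lay inside Rxra, chr2:27703353-27704101, with 8.49 and 7.08 in Y541S and 8.18 and 6.43 in WT, and all 4 PR libraries had a peak there.

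**Figure D5:**
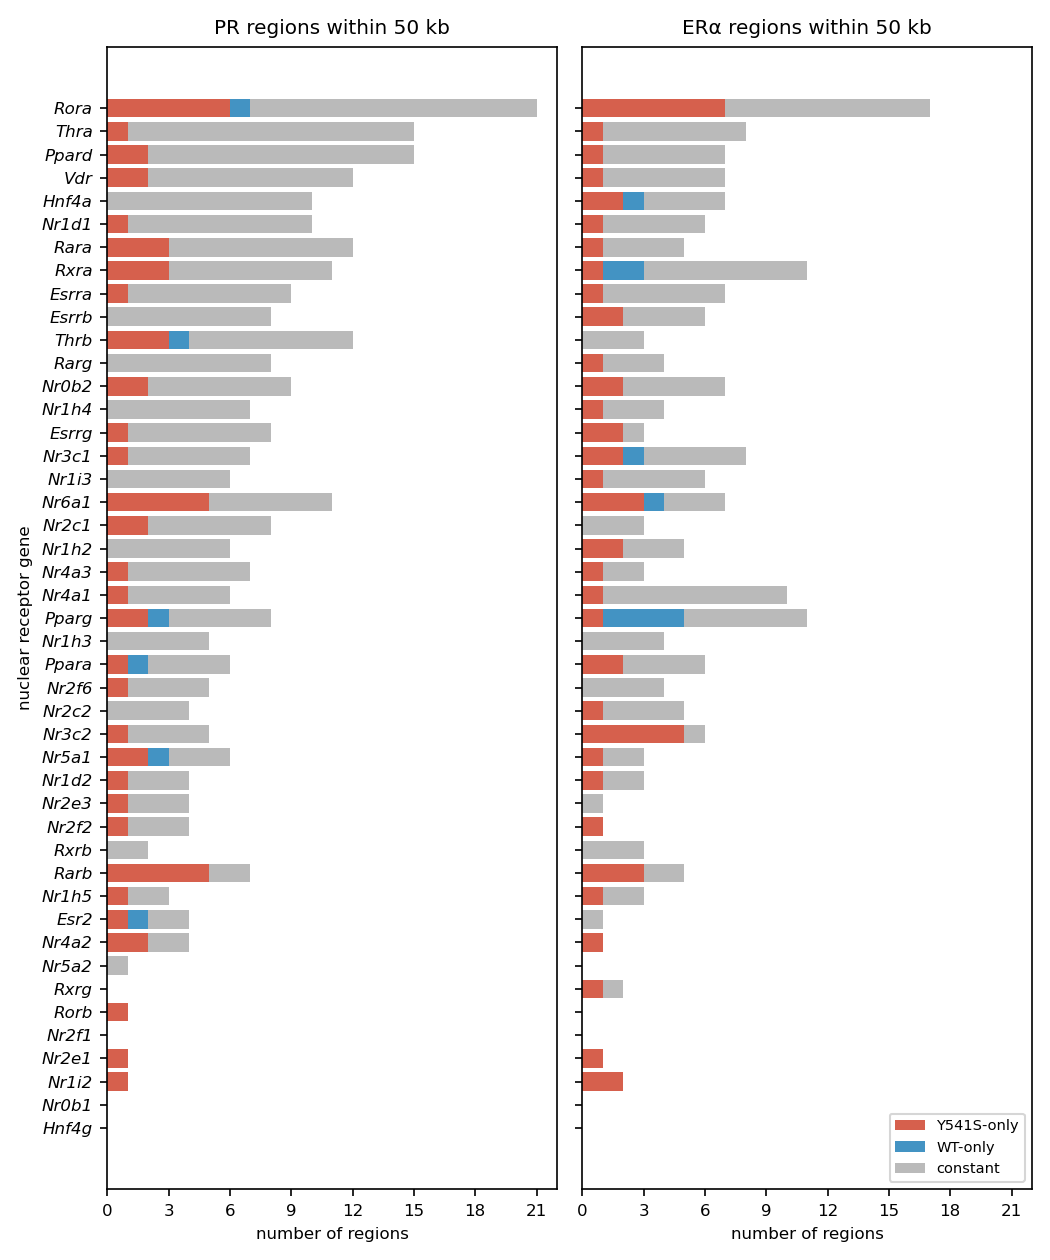
Number of PR (left) and ERα (right) regions within 50 kb of each member, split into Y541S-only, WT-only and constant, ordered by constant PR regions. Rora carries most regions of both receptors, with 14 constant PR and 10 constant ERα regions. Pparg has 4 WT-only ERα regions, some of which lie close together.

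Members with most Y541S-only regions included several of the longest genes. For PR, Rora had 6, Rarb 5, Nr6a1 5 and Rara, Thrb and Rxra 3 each. For ERα, Rora had 7, Nr3c2 5, and Nr6a1 and Rarb 3 each. Rora encodes the orphan receptor RORα and spans 735 kb, and it had 53 and 53 PR summits in Y541S and 41 and 46 in WT, and 61 and 66 ERα summits in Y541S and 42 and 41 in WT. Its log2 difference scaled to list length was -0.0012 for PR and -0.03 for ERα. Rarb spans 651 kb and had 19 and 16 PR summits in Y541S and 12 and 14 in WT, and all 5 Y541S-only PR regions and all 3 Y541S-only ERα regions lay inside the gene. Nr6a1 had 32 and 19 PR summits in Y541S and 15 and 22 in WT, and 26 and 30 ERα summits in Y541S and 20 and 18 in WT. Nr3c2 had 16 and 17 ERα summits in Y541S and 9 and 14 in WT, with 4 of its 5 Y541S-only ERα regions inside the gene.

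The best-ranked Y541S-only PR regions lay inside Nr2e3, an orphan receptor of photoreceptors (chr9:59955183-59955718, fold enrichments 6.58 and 6.07), inside Ppard, the fatty acid receptor PPARδ (chr17:28242185-28242719, 6.46 and 5.51), inside Rarb (chr14:16433157-16433710, 11.4 and 6.33) and 18.2 kb from Esrra, estrogen-related receptor alpha (chr19:6892565-6892986, 6.99 and 5.54). The first and second had no ERα peak in any library. The best Y541S-only ERα regions lay 24.3 kb from Nr1h2, the oxysterol receptor LXRβ (chr7:44525085-44525468, 4.31 and 4.02), inside Nr6a1 (chr2:38767247-38767671, 4.62 and 4.82), 11.7 kb from Nr1d1 (chr11:98786912-98787165, 3.08 and 2.88, closest gene Msl1) and inside Rora (chr9:69265143-69265583, 4.26 and 4.38). All 4 PR libraries had a peak at the Nr1h2 and Nr6a1 regions, and none at the Nr1d1 region. These 8 regions ranked between 14588 and 38705 in the Y541S lists, further down than the best-ranked constant regions.

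WT-only regions were few and weak. For ERα the best lay inside Rxra (chr2:27740373-27740644, fold enrichments 3.25 and 4.18), 32.1 kb from Pparg (chr6:115522368-115522683, 3.39 and 3.4) and 39.2 kb from Rxra (chr2:27802284-27802835, 3.20 and 3.60). For PR they lay 44.3 kb from Pparg (chr6:115534633-115534856, 2.95 and 4.30), 15.1 kb from Ppara (chr15:85821817-85822175, 2.90 and 4.59) and 0.157 kb from Esr2 (chr12:76177146-76177562, 3.81 and 3.5). The genes with most WT-only ERα regions were Pparg with 4 and Rxra with 2, and Rxra had 24 and 24 ERα summits in Y541S and 23 and 23 in WT.

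By class, the 10 receptors for fatty acids, sterols, bile acids and xenobiotics held 147 and 134 PR summits in Y541S and 125 and 130 in WT, and 145 and 144 ERα summits in Y541S and 119 and 110 in WT. Per 100000 peaks the order turned, with 129 and 132 PR summits in Y541S and 151 and 139 in WT, and 136 and 136 ERα summits in Y541S and 164 and 171 in WT. The 5 thyroid hormone and retinoic acid receptors held 102 and 97.7 PR summits per 100000 peaks in Y541S and 106 and 99.5 in WT, and 94.5 and 101 ERα summits in Y541S and 132 and 91.5 in WT. The 6 steroid and estrogen-related receptors held 95.0 and 79.9 PR summits per 100000 peaks in Y541S and 92.8 and 96.3 in WT, and 92.6 and 104 ERα summits in Y541S and 102 and 93.0 in WT. The genotypes thus overlapped for PR and for ERα in the thyroid hormone and retinoic acid class and in the steroid class, and did not among the fatty acid and sterol sensors, where both Y541S libraries were below both WT libraries. Lower ERα values without overlap were not particular to that class. Retinoid X receptors had 35.5 and 40.7 in Y541S and 51.0 and 62.0 in WT. The REV-ERB and ROR, NR4A, atypical repressor, and testicular, tailless and COUP orphan classes were lower too. The nearest values of the atypical repressors were 12.3 in Y541S and 12.4 in WT. For ERα the HNF4 class, with 19.6 and 17.99 in Y541S and 17.91 and 17.1 in WT, was higher without overlap. So was the NR5A and NR6A class, with 32.7 and 36.9 against 31.7 and 32.6. For PR, the HNF4 class was lower without overlap, as was the orphan class, with nearest values of 52.8 and 53.0. Of all genes tested, 31.7% were below and 14.2% above without overlap for ERα, and 23% and 14.2% for PR. The share of peaks near any coding gene was lower in Y541S too.

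Genes that serve these receptors were described in the same way. Of 14 genes of retinoid supply and clearance, such as the retinol dehydrogenase gene Rdh10, 12 were tested and 0 were called in any of the 5 limma comparisons. A constant PR region lay near 12 of the 14 (78.1% of coding genes) and a constant ERα region near 11 (72.4%). Of 10 chaperone genes that hold steroid receptors ready for ligand, such as Hsp90ab1, all were tested, 0 were called, and each had constant regions of both receptors. At an unadjusted p under 0.05, 4 of the 10 chaperone genes were lower for ERα in Y541S against WT and 0 higher. Of all genes, 17.1% were under that p in either direction, and 34.5% had a difference above 0. The median log2 difference was -0.26 for the chaperone genes against -0.19 for all genes.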

How the data were processed

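ChIP-seq libraries of ERα and PR came from formalin-fixed whole mammary glands, per the labels' protocols, with 2 biological replicates per receptor and genotype. Where nothing says that replicates came from separate animals, p-values measure only the spread between these libraries. It is not stated whether ERα and PR libraries share chromatin. The authors deposited 1 peak list per library. The submitters' processing notes name the build mm10. For alignment, peak calling and input the method is not given in the sources used here. Deposited columns are a score, a fold enrichment (a ratio), a −log10 p and a −log10 q, all the authors' values, which served to describe, order or select the peaks of 1 list.

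Summits were counted within 50 kb of the span of each RefSeq coding gene (GRCm38.p6) with Python 3.11.15 and pandas 2.3.3, and compared with limma 3.58.1 (trend) in R 4.3.3, with 4 groups of 2, a pseudocount of 0.5 and Benjamini-Hochberg adjustment over all genes tested, after a check on simulated data. Peaks of a receptor that overlapped by 1 bp were merged into regions. Named members were the 5 with most and 3 with fewest summits per 100 kb, those called, those with most Y541S-only (4) or WT-only (2) regions, and the 3 with the largest difference each way per genotype comparison. Named regions were the best ranked per class (5 constant, 4 Y541S-only, 3 WT-only). Other members and regions were named after their values were seen. The members and lists were chosen with earlier results of these data known. Alternatives were stricter peak thresholds, a 10 kb window, no scaling, a pseudocount of 1, no filter, merging at 100 bp, a replicate block and leaving out each library.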

Additional observations from a re-analysis of the deposited data

How the results depend on the processing

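Counts of genes called by limma moved by over 1.5 times as follows. Calls for ERα in Y541S against WT (1 as designed) were 0 with peaks of −log10 p of at least 5, 0 with the 20000 strongest peaks and 544 without scaling. Calls for PR in Y541S against WT (0) were 1 with a 10 kb window. Calls for PR against ERα in WT (103) were 585 and 35 with the stricter thresholds, 1 with a 10 kb window, 305 without scaling and 10 without the filter. In Y541S (0) they were 3 and 98 with the stricter thresholds. The replicate block gave 3 calls for ERα and 215 for PR against ERα in WT. Same-numbered libraries deviated together only weakly (correlations from -0.01 to 0.14). Such correlations cannot tell whether the replicate numbers pair the libraries, since shared chromatin need not show in peak counts. Leaving out each library gave 0 to 141 calls for ERα, 0 to 6 for PR, 5 to 372 for PR against ERα in WT, 0 to 1 in Y541S and 0 to 6 for the difference of genotype effects.

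The log2 ratio of the family's share for ERα (-0.19) was -0.15 and -0.0094 with the stricter thresholds, -0.13 with a 10 kb window and -0.21 to -0.16 leaving out a library. For PR (-0.05) it was -0.032 and, reversed, 0.019 with the stricter thresholds, and -0.07 to -0.04 leaving out a library. PR against ERα gave -0.13, -0.28 and -0.11 (10 kb) in Y541S, with -0.09 to -0.04 leaving out a library, and -0.24 and -0.30 in WT, with -0.22 to -0.18.

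With peaks of −log10 p of at least 5, the 20000 strongest peaks and a 10 kb window in turn, constant ERα regions (136) numbered 77, 52 and 78. Y541S-only ERα regions (54) numbered 30 and 13 with the stricter thresholds, and WT-only ERα regions (9) 3 with the strongest peaks. Constant PR regions (218) numbered 58 with the strongest peaks and 122 with a 10 kb window, Y541S-only PR regions (55) 7 and 33, and WT-only PR regions (6) 2, 3 and 3 in the first order. With 3 libraries the definitions are looser by construction: constant ERα regions numbered 146 to 198, Y541S-only 77 to 355 and WT-only 21 to 190, and for PR 219 to 303, 96 to 212 and 8 to 150.

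Of 200 alternative values for 15 named log2 differences, 194 kept their direction. The 6 that did not were, for ERα, Rarg (0.16) and Nr1h3 (0.75) with the 20000 strongest peaks and Rarb (-0.42) with −log10 p of at least 5, and, for PR, Nr4a2 (-0.019) and Nr2f1 (-0.33) without WT replicate 1 and Nr5a2 (-0.046) without WT replicate 2. Leaving out each library gave -0.019 to 0.91 for Nr4a2, -0.33 to 1.82 for Nr2f1 and -0.046 to 1.35 for Nr5a2. Except where the construction shows it, the cause was not tested. List length and threshold limit every count, since the lists differ in length and the reads behind them were not used.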
